A study of Mus musculus with 6 samples.

Results

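The clustered protocadherins are 3 neighbouring gene families, Pcdha, Pcdhb and Pcdhg, that lie one after the other on mouse chromosome 18. CTCF intervals were taken from a window of 1.1 Mb, chr18:37000001-38100000 in mm9 coordinates, chosen by position to hold these families. An interval belonged to the window when its midpoint lay inside it. The window held 22 of the 36923 intervals in the 2 deposited lists, 9 from quiescent and 13 from freshly isolated muscle stem cells. These 22 intervals formed 19 sites after overlapping intervals were merged.

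The series profiled CTCF by ChIP-seq, which sequences the DNA recovered with an antibody from sonicated chromatin. Quiescent (QSC) and freshly isolated (FISC) satellite cells, the stem cells of skeletal muscle, are each represented by 2 CTCF ChIP libraries and 1 library of input DNA. All 6 libraries came from C57BL/6 mice with the genotype Pax7-nGFP at postnatal day 38, so the groups differ in cell state only as far as the labels say. The labels do not say whether the 2 libraries of a state came from separate animals, and a marker check of the cell type needs expression values, which were not analysed here. The authors deposited 1 list of intervals per state. The lists give no height, score or read count, so depth is unknown, no value below has a replicate error, and no test between the states was made. CTCF may still be bound where a state lists no interval, since a list holds only what passed the authors' calling.

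Clustered protocadherins are cell adhesion proteins of the cadherin superfamily, best known from the nervous system. There, single neurons express a small set of isoforms by choosing among alternative promoters. Pcdha and Pcdhg genes each have a variable first exon with its own promoter, joined by splicing to constant exons that the family shares, whereas Pcdhb genes have a single coding exon. CTCF, a zinc finger protein that anchors chromatin loops together with cohesin, is known to bind at many of these promoters and at distant enhancers of the cluster. Whether satellite cells transcribe any of these genes was not measured here.

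The RefSeq gene table of GRCm38, used only for names and order, lists 58 genes in the 3 families. Pcdha has 14 members, from Pcdha1 to Pcdha12 and then Pcdhac1 and Pcdhac2. The 22 Pcdhb genes follow, from Pcdhb1 to Pcdhb22. Slc25a2, a carrier of the mitochondrial membrane, and Taf7, a subunit of the general transcription factor TFIID, lie between Pcdhb22 and the Pcdhg family. Pcdhg has 22 members, from Pcdhga1 to Pcdhgc5, of which 1, Pcdhgb8, is a pseudogene. Zmat2 is the last protein-coding gene before the cluster. Diaph1, a formin that nucleates actin filaments, and Hdac3, a histone deacetylase, come after it. The lists are in mm9 and no mm9 annotation or genome was used here. For that reason no interval is assigned to a single protocadherin gene, promoter or exon, no CTCF motif was searched, and the ends of the window cannot be matched to Pcdha1, Pcdhgc5 or Diaph1. Members of these families are close copies of one another in sequence. How reads that fit several copies were treated is not given in the sources used here, and the part of such reads in the lists was not tested.

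The first 1.0 Mb of the window held only intervals listed in 1 state. Between 37.0 and 38.0 Mb lay 6 QSC and 5 FISC intervals, and none of them overlapped an interval of the other list. This makes 0 of 11 sites in both lists. An approximate limit for a count of 0, 3 counts of the total, allows a share of up to 27.3%. The share of sites in both lists was 24.7% over the genome and 22.3% in the rest of chromosome 18. Both lie below that approximate limit, the genome's share by little, so the count of 0 is not set apart from them by it. All 3 sites found in both lists lay in the last 100 kb, after 38.0 Mb, together with 5 FISC-only sites and no QSC-only site. The division at 38.0 Mb was made after the positions had been seen. The last 100 kb may lie beyond the last Pcdhg gene, which these files do not settle. The shared sites and the many FISC intervals there may therefore not belong to the protocadherin genes themselves.

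**Figure D1:**
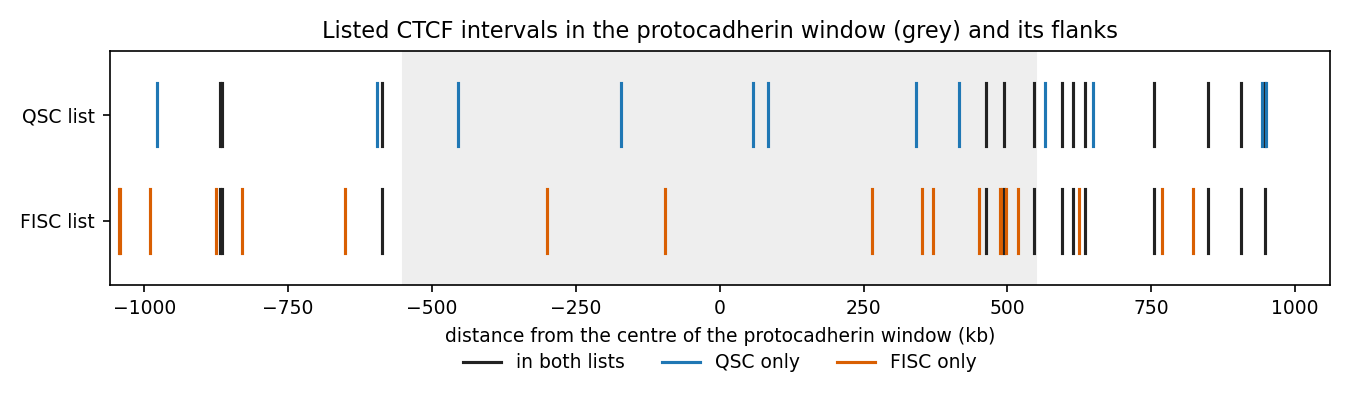
Each vertical line is 1 listed interval of the QSC list (top) or the FISC list (bottom), placed by its distance in kb from the centre of the protocadherin window, which is shaded grey. Black lines are intervals found in both lists, and coloured lines are intervals of 1 list: the grey area holds 3 pairs of black lines, all at its right end, and 16 coloured lines.

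The first 4 intervals from the left end of the window came from the QSC and the FISC list in turn. The first was QSC-only, at chr18:37094736-37094980. It was 245 bp wide, the narrowest width in the QSC list. A FISC-only interval of 330 bp followed at chr18:37249457-37249786, and a QSC-only interval of 252 bp at chr18:37377934-37378185. The next was FISC-only, 261 bp wide, at chr18:37454398-37454658. Each of these 4 intervals lay at least 76.2 kb from the nearest interval of the other list.

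A pair of QSC-only intervals, the closest QSC intervals of the window, came next at chr18:37607310-37607674 and chr18:37633104-37633375. Their widths were 365 bp and 272 bp, and 25.4 kb separated them. The second lay 178 kb from the nearest FISC interval, the largest such distance in the window. It was followed by the longest stretch of the window without any site, 182 kb up to a FISC-only interval of 359 bp at chr18:37815095-37815453. Of the 926 gaps between neighbouring sites on chromosome 18, 137 (14.8%) were at least as long, so a gap of this length was not rare on the chromosome.

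Sites were closer together from there on. A QSC-only interval of 260 bp at chr18:37890367-37890626 and a FISC-only interval of 316 bp at chr18:37901483-37901798 were 10.9 kb apart. This was the shortest distance between the lists in the inner 1.0 Mb, and it is far longer than any interval of the window. A FISC-only interval of 336 bp lay at chr18:37920995-37921330 and a QSC-only interval of 338 bp at chr18:37965984-37966321. Over the 11 intervals of the inner 1.0 Mb, the median distance to the other list was 76.2 kb, and 7 of the 11 lay more than 50 kb from it. Matching intervals across gaps of up to 500 bp therefore turns none of them into a shared interval.

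**Figure D2:**
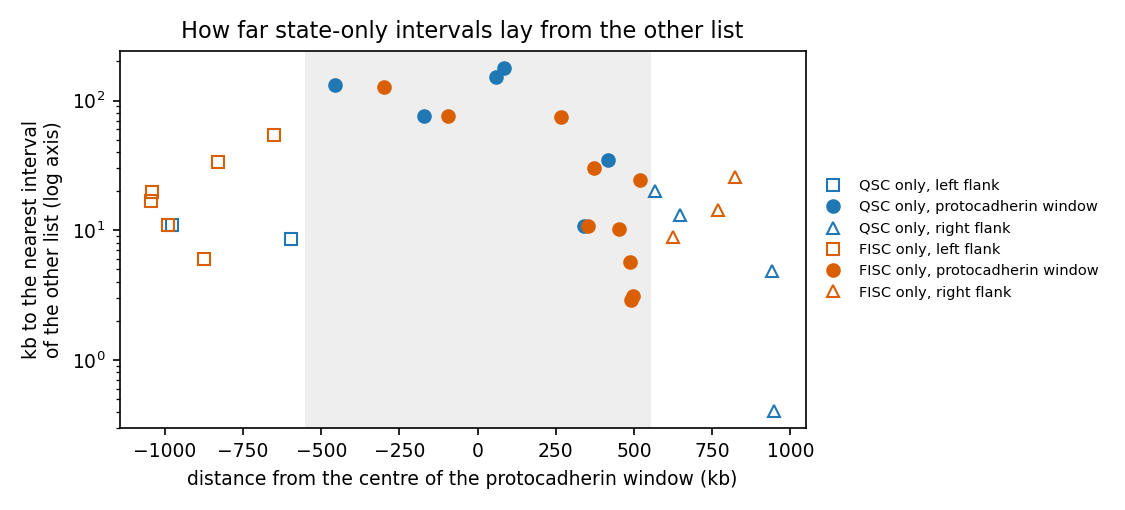
Every interval listed in 1 state only is placed by its distance in kb from the centre of the protocadherin window (grey area) and, on a log axis, by its distance in kb to the nearest interval of the other list. Filled circles are intervals of the window: those in its left and middle parts lie 76.2 to 178 kb from the other list, those at its right end down to 2.88 kb.

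In the last 100 kb the lists met. A FISC-only interval of 345 bp at chr18:38000973-38001317 preceded the first site found in both lists, which spanned chr18:38011557-38012205. The QSC interval there was 619 bp wide and the FISC interval 468 bp, they overlapped by 438 bp, and their midpoints were 106 bp apart. The second shared site, at chr18:38043051-38043561, had intervals of 448 bp in QSC and 466 bp in FISC, with midpoints 54 bp apart. The third, at chr18:38095028-38095573, had intervals of 421 bp and 489 bp, with midpoints 91 bp apart. FISC was the wider interval at 2 of the 3 sites and QSC at 1, so neither list had the wider interval throughout. Over the 198 overlapping pairs in the rest of chromosome 18, the median distance between midpoints was 69.8 bp, and it reached 398 bp. The 3 pairs of the window lie within that range.

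The second shared site sat in a chain of FISC intervals. FISC-only intervals lay at chr18:38036998-38037328, chr18:38039871-38040172 and chr18:38046605-38046958, with widths of 331, 302 and 354 bp. With the shared interval they formed a run of 4 FISC intervals over 9.96 kb, each less than 10 kb from the next. The QSC list held 1 interval in this run. On chromosome 18 the FISC list had 59 runs of 2 or more intervals spaced under 10 kb, of which 5 were of 4 or more. The last FISC-only interval of the window, 325 bp wide, lay at chr18:38067761-38068085. No gap between neighbouring QSC intervals of the window was under 10 kb (0 of 8, which allows up to 37.5%). Between FISC intervals it was 3 of 12 gaps, all 3 inside the run of 4. In the rest of chromosome 18, 10.5% of QSC gaps and 15.1% of FISC gaps were under 10 kb, so the QSC count of 0 is not unusual.

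Sharing in the window as a whole was 3 of 9 QSC intervals (33.3%, 95% Wilson interval 12.1 to 64.6) and 3 of 13 FISC intervals (23.1%, 8.18 to 50.3). Over the whole genome 37.8% of QSC and 41.8% of FISC intervals overlapped the other list. Of the 19 merged sites, 3 (15.8%, 5.52 to 37.6) were in both lists, 6 were QSC-only and 10 FISC-only, against 24.7% of sites in both lists over the genome. Each of these 3 shares lay below the genome's, and each interval includes the genome's share. The intervals cover counting error only, and neighbouring intervals are not independent of each other.

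The flanks, 0.5 Mb on each side, shared more. In both flanks together, 10 of 16 QSC intervals (62.5%, 95% Wilson interval 38.6 to 81.5) and 10 of 19 FISC intervals (52.6%, 31.7 to 72.7) were shared. The window thus stood below its flanks in QSC (difference -29.2 percentage points, 95% Newcombe interval -57.7 to 10.1). For FISC the difference was -29.6 (-54.5 to 4.75). Both intervals include 0, so a difference in sharing between the whole window and its flanks was not detectable with these numbers. Without the last 100 kb, which then counts as flank, the QSC difference was -68.4 (-84.6 to -23.4), a division made after seeing where the shared sites lay, and the FISC difference was -48.1 (-66.0 to -1.34). With the window narrowed by 100 kb at each end these were -68.4 (-84.6 to -19.5) and -54.2 (-72.1 to -6.71). This narrowing cuts off the same last 100 kb with every shared site, and the flanks move inward with it. It is therefore not a separate check. With the window widened by 100 kb at each end the differences were -17.8 in QSC (-47.1 to 17.0) and -3.22 in FISC (-31.7 to 26.2), both including 0.

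The 2 flanks were not alike. The right flank, which ended at 38.6 Mb, shared 7 of 11 QSC and 7 of 10 FISC intervals. The left flank, 36.5 to 37.0 Mb, shared 3 of 5 QSC and 3 of 9 FISC intervals. Against the right flank alone, the share of FISC intervals in the window was lower by more than its counting interval (difference -46.9 percentage points, 95% Newcombe interval -71.2 to -6.20). Against the left flank it was not (-10.3, -44.9 to 24.3). In the rest of chromosome 18, 197 of 594 QSC intervals (33.2%) and 198 of 487 FISC intervals (40.7%) were shared. The window differed from these by 0.17 percentage points in QSC (-21.5 to 31.6) and by -17.6 in FISC (-33.1 to 9.93), which is within counting error in both lists.

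**Figure D3:**
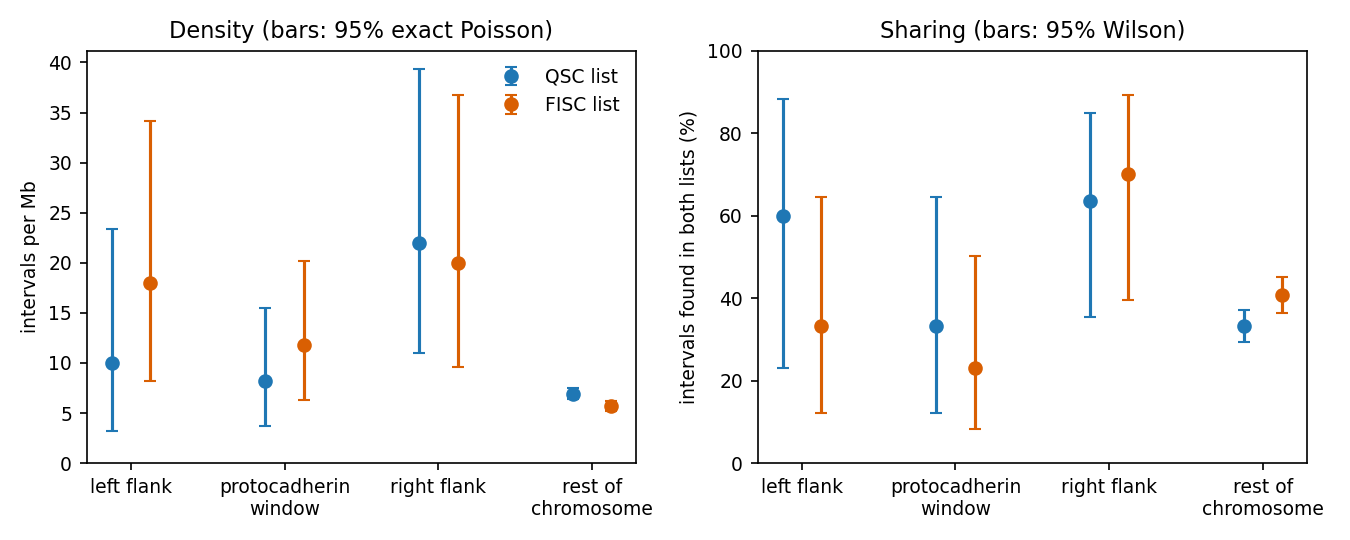
Left, intervals per Mb with 95% exact Poisson bars, and right, the percent of intervals found in both lists with 95% Wilson bars, for the QSC list (blue) and the FISC list (orange) in the left flank, the protocadherin window, the right flank and the rest of the chromosome. Sharing in the window, 33.3% and 23.1%, is below that in the right flank, 63.6% and 70%, and its density lies between the rest of the chromosome and the right flank.

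The window held more CTCF intervals per Mb than the rest of chromosome 18 in both lists, in FISC beyond counting error but not when the other autosomes were the background. QSC listed 8.18 intervals per Mb in it (95% exact Poisson interval 3.74 to 15.5) and 6.94 per Mb in the rest of chromosome 18, a ratio of 1.18 (0.537 to 2.25). FISC listed 11.8 per Mb (6.29 to 20.2) and 5.69 per Mb in the rest, a ratio of 2.08 (95% exact interval 1.1 to 3.59). Against all other autosomes the FISC ratio was 1.65 (0.88 to 2.83), which includes 1. The FISC excess rested on the last 100 kb, which held 8 of the 13 FISC intervals. Without it the FISC ratio was 0.88 (0.285 to 2.07) and the QSC ratio 0.866 (0.317 to 1.90). The inner 1.0 Mb thus held about as many intervals per Mb as the chromosome at large, within wide counting error.

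Against its flanks the window was the sparser region in both lists, within counting error for the window and flanks as defined and beyond it under some alternatives. The flanks held 16 QSC and 19 FISC intervals in 1 Mb, which gives density ratios of 0.511 (95% exact interval 0.199 to 1.23) and 0.622 (0.282 to 1.33). Against the right flank alone the QSC ratio was 0.372 (0.136 to 0.987), and against flanks of 1 Mb it was 0.468 (0.198 to 0.992). Without the last 100 kb, which was then counted as flank, the ratio to the flanks was 0.316 (0.103 to 0.822) for QSC and 0.185 (0.0557 to 0.488) for FISC. Among the wider 50% of each list it was 0.303 (0.0862 to 0.877) and 0.195 (0.0359 to 0.698). That choice kept 15 of 16 QSC and 14 of 19 FISC intervals of the flanks. In the window it kept 5 of 9 and 3 of 13, so these ratios depend on width as well as density. Other alternatives included 1. With the window widened by 100 kb at each end the ratios were 0.947 (0.427 to 2.14) and 0.729 (0.361 to 1.47). With flanks of 0.25 Mb they were 0.511 (0.175 to 1.52) and 0.739 (0.284 to 2.06).

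More FISC than QSC intervals were listed in the window and in its flanks together, and fewer in the rest of the chromosome. There were 1.44 FISC intervals per QSC interval in the window (95% exact interval 0.571 to 3.83), against 1.19 (0.578 to 2.47) in both flanks. The flanks differed, with a ratio of 1.8 in the left flank and 0.909 in the right flank, where QSC had more. In the rest of chromosome 18 the ratio was 0.82 (0.726 to 0.926). The wide interval of the window includes all of these ratios. In the inner 1.0 Mb the lists held 6 QSC and 5 FISC intervals, and in the last 100 kb 3 QSC and 8 FISC.

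Chromosome 18 was also divided into 78 windows of 1.1 Mb laid end to end, with the protocadherin window as one of them. The windows on both sides were rich in sites. The one before, 35.9 to 37.0 Mb, held 21 QSC and 25 FISC intervals and 13 sites in both lists, the most of any window on the chromosome. The one after, which ended at 39.2 Mb, held 18 QSC and 17 FISC intervals and 10 sites in both lists. The protocadherin window between them held 3 sites in both lists, which 21 of the 78 windows exceeded and 8, itself included, equalled. It ranked higher by FISC intervals, with 8 windows above it, than by QSC intervals, with 24 above it. Its 19 sites compare with a median of 10.5, with 36 in the richest window, at 61.2 to 62.3 Mb, and with 1 in the poorest, at 41.4 to 42.5 Mb.

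**Figure D4:**
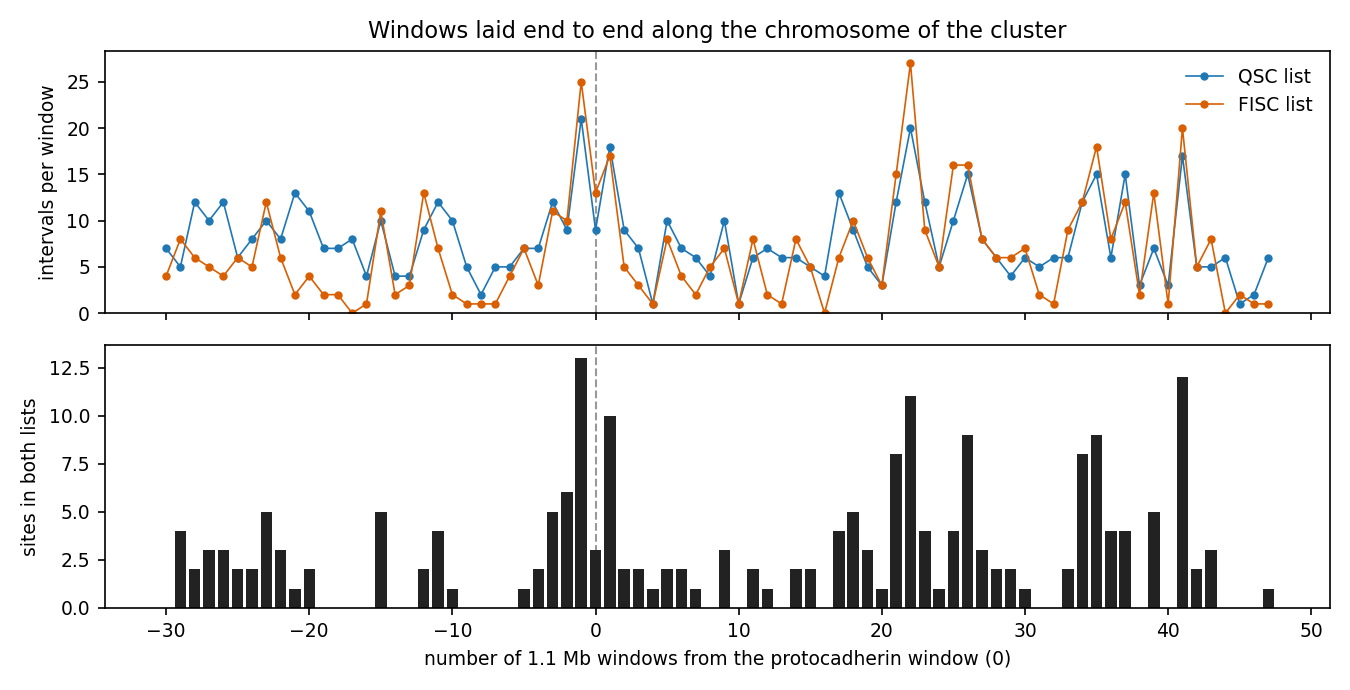
Top, the number of QSC (blue) and FISC (orange) intervals in each of 78 windows of 1.1 Mb along the chromosome, and bottom, the number of sites found in both lists, against the number of windows from the protocadherin window (0, dashed line). The protocadherin window, with 3 sites in both lists, lies between neighbours with 13 and 10.

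A stretch of 1049 kb without a site in both lists ran from chr18:36962976 to 38011556, from near the end of the left flank to the last 100 kb of the window. On chromosome 18, 22 of 209 stretches between neighbouring shared sites were at least as long. This stretch held 12 sites of 1 list, 6 QSC-only and 6 FISC-only, or 11.4 per Mb. Among the 22 long stretches, 1 was denser in such sites, the median was 6.55 per Mb, and the range was 1.93 to 12.8. Over all 22, QSC-only sites outnumbered FISC-only sites by 208 to 97, whereas the stretch through the protocadherin window had equal numbers. In 3 of the 22 the FISC-only part was larger.

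Other regions gave a measure of how often so many sites come without a shared one. In windows of 1 Mb laid end to end from 37.0 Mb, 37 of 86 on chromosome 18 held at least 11 sites. Of these 37, 2 had none in both lists: the inner 1.0 Mb of the protocadherin window and 46.0 to 47.0 Mb. On the other autosomes 31 of 1077 such windows (2.88%) had none in both lists, a share that takes in windows with more than 11 sites. The closer comparison is with windows of exactly 11 sites. Of these, 15 of 113 on the other autosomes had none in both lists, and the median was 2 sites in both lists. On chromosome 18 it was 2 of 6, the inner 1.0 Mb of the protocadherin window included. These windows were counted after the absence of shared sites had been seen, and they describe where the inner 1.0 Mb stands without a test.

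Shared intervals were wider than those of 1 list in the window, as they were over both whole lists. Over the genome the medians were 359 and 291 bp in QSC and 412 and 344 bp in FISC, and in the rest of chromosome 18 they were 362 and 298 bp and 411 and 330 bp. All 6 intervals of the 3 shared sites were in the widest 20% of their own list. The 10 FISC-only intervals, from 261 to 359 bp with a median of 331 bp, were all narrower than the median FISC interval of 372 bp. Of the 6 QSC-only intervals, from 245 to 365 bp with a median of 266 bp, 4 were narrower than the median QSC interval of 310 bp. The shared and the 1-list intervals of the window did not overlap in width, in either list, with 3 shared intervals in each. Width is the only property of an interval in these lists besides its position, and its relation to the strength of CTCF binding was not tested.

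In the flanks the widths of the classes overlapped. In the left flank the shared FISC intervals were 292 to 381 bp wide and the FISC-only intervals 247 to 550 bp. In the right flank they were 383 to 495 bp and 355 to 450 bp. The FISC intervals of the window were narrower than the list median in 10 of 13 cases, so 23.1% were wider (95% Wilson interval 8.18 to 50.3), against 14 of 19 wider in the flanks (73.7%, 51.2 to 88.2) and 45.8% in the rest of chromosome 18. In QSC 5 of 9 intervals of the window were wider than the list median, and 15 of 16 in the flanks. When only the wider 50% of each list was kept, the window held the 3 shared sites, 2 QSC-only sites and no FISC-only site.

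**Figure D5:**
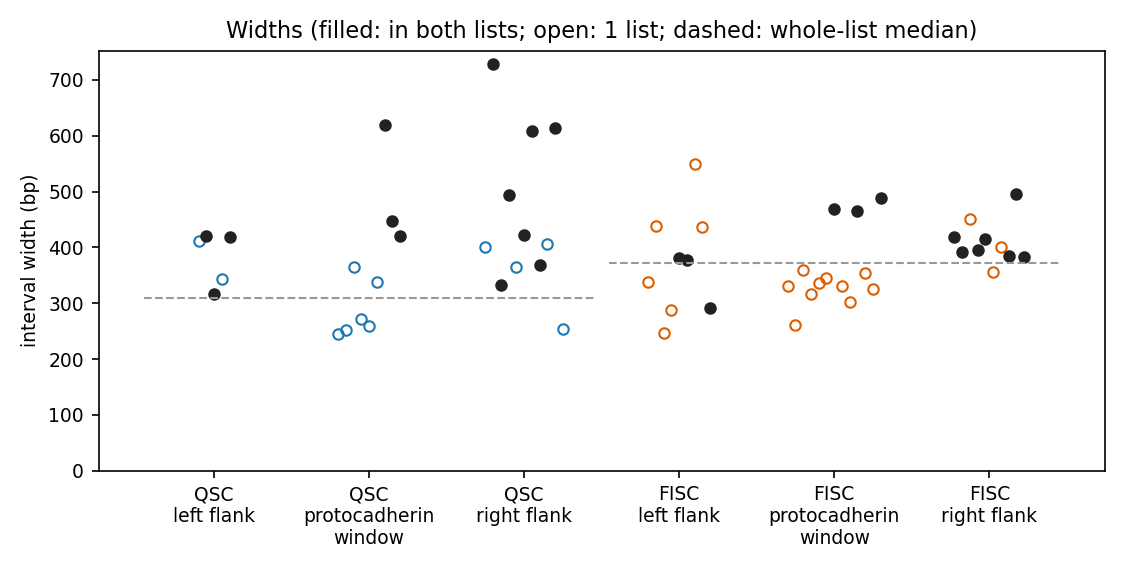
Each point is the width in bp of 1 interval of the left flank, the protocadherin window or the right flank, for the QSC list (left side) and the FISC list (right side), in order of position within each region. Filled points are intervals found in both lists, open points those of 1 list, and dashed lines the medians of the whole lists, 310 bp and 372 bp: in the window every filled point is above every open point of its list.

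Intervals of 1 list lay farther from the other list in the window than beside it, for QSC. The 6 QSC-only intervals of the window were a median of 104 kb from the nearest FISC interval, with a range of 10.9 to 178 kb. In the flanks the median of 6 was 9.76 kb, from 0.406 to 20.1 kb. In the rest of chromosome 18 the median of 397 was 75.9 kb. For FISC-only intervals the medians were 17.6 kb in the window (10 intervals, 2.88 to 128 kb), 16.8 kb in the flanks (9) and 42.1 kb in the rest (289). The 10 FISC-only intervals of the window thus fell into 5 in the inner 1.0 Mb, at 10.9 to 128 kb from QSC, and 5 in the last 100 kb, at 2.88 to 24.3 kb.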

How the data were processed

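Per the submitters' processing notes, positions refer to mm9, and Bowtie2 2.2.3, Picard, MACS2 and HOMER were used in roles that the notes leave unstated. The 2 lists deposited by the authors hold a chromosome, a start and an end per interval and no other value. Whether both libraries of a state were pooled or called singly, against which control and at what threshold, is not given in the sources used here.

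An interval was shared when 1 bp or more of it was covered by the other list; bedtools 2.31.1 gave identical numbers. Shares carry 95% Wilson intervals, differences of shares Newcombe intervals, and counts or ratios of counts exact intervals, from scipy 1.17.1 under Python 3.11.15. Lengths of the rest of chromosome 18 run from its first to its last listed position. Coordinates count from 1. The counting was tested on simulated data with known sharing. Alternatives changed the overlap, the window, the flank, the background and the lists. Every site of the window in both lists was named by rule, with the widest of 1 list and those beside the longest gap, and the other sites of the window were added. Without an mm9 reference, the planned gene assignment and motif search were left out. The division at 38.0 Mb, the runs, the unshared stretches, the 1 Mb windows and the width ranks were added after seeing the data. The window and the planned values were chosen with earlier results of these data known.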

Additional observations from a re-analysis of the deposited data

How the results depend on the processing

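Of 141 values recomputed under 12 alternatives, 103 stayed within the 95% interval of the reported value (within 1.5 times it for counts of sites). None of these 103 changed whether its own 95% interval included no difference. A value whose interval included no difference could still cross it. The QSC density ratio to the rest went from 1.18 to 0.802 with the window narrowed by 100 kb at each end. The other definitions of a shared interval (midpoints within 100 bp, 50% of the shorter interval, gaps up to 500 bp), equal list sizes, any overlap with the window and flanks of 0.25 Mb changed none. Against all other autosomes the FISC density excess of 2.08 was 1.65 (0.88 to 2.83), within counting error. With flanks of 1 Mb the QSC density ratio to the flanks was 0.468 (0.198 to 0.992), below 1 beyond counting error. For both, the cause was not tested.

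The ends of the window mattered most. Both shorter windows below count the last 100 kb, with every shared site, as flank. Narrowed by 100 kb at each end, the window had 0% of QSC and 0% of FISC intervals in both lists, 0 sites in both and 5 FISC-only sites. The differences in sharing to the flanks, -68.4 points in QSC and -54.2 in FISC (-72.1 to -6.71), then left out 0. Those to the rest, -33.1 in QSC (-37.0 to 10.5) and -40.4 in FISC (-44.8 to 3.25), included 0. The density ratios to the flanks, 0.292 in QSC and 0.231 in FISC, left out 1. FISC density became 5.56 per Mb, 0.973 of the rest, which turned the excess of 2.08 into a value below 1. From 37.0 to 38.0 Mb, an alternative chosen after seeing the data, sharing was again 0% in both lists, with 0 sites in both and 5 FISC-only. The differences to the flanks were -68.4 and -48.1 points. To the rest they were -33.2 (-37.0 to 6.04) and -40.7 (-45.1 to 3.00), within counting error. The density ratios to the flanks were 0.316 and 0.185, and FISC density was 5 per Mb, 0.88 of the rest. Widened by 100 kb at each end, the window held 7 sites in both lists, and its QSC density was 1.78 times the rest (1.01 to 2.92), beyond counting error.

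In the wider 50% of each list the window kept 3 FISC intervals, of which 100% were shared, with a median width of 468 bp and a density of 2.73 per Mb. FISC sharing then stood 35.7 points above the flanks (-23.7 to 61.2) and 55.2 above the rest (-1.37 to 61.5), both within counting error. Left in the window were 2 QSC-only and 0 FISC-only sites. Density ratios to the flanks were 0.303 in QSC and 0.195 in FISC, both below 1 beyond counting error, and the FISC ratio to the rest was 1.05, within it. This alternative removes 10 of the 13 FISC intervals of the window by its construction.

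No stricter threshold was run, since the lists hold no score. No paired analysis was possible because the replicate libraries enter a state's single list without values of their own and no library was left out. Few intervals and unknown depth limit every statement on sharing here.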
